A study of Homo sapiens with 4 samples.

Results

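Aminoacyl-tRNA synthetases join each amino acid to its tRNA, the step at which the genetic code is read into protein. Transcripts of 37 genes of this family were measured among 26733 genes. The 37 were chosen by gene name from a list of the enzymes, with earlier results of these data known. Of these, 21 encode cytosolic enzymes and 16 enzymes of the mitochondrial matrix. All 37 passed the filter on low counts. The libraries came from Jurkat cells, an established line of T-cell acute lymphoblastic leukaemia, either treated for 24 h with GNE987 at a labelled 25 nmol (no volume is given) or labelled as not treated, with no vehicle named. Each group had 2 libraries of the same line, and the labels do not say whether the replicates were separate cultures, so every p-value reflects library-to-library spread alone, which may be technical. GNE987 links a binder of BET bromodomain proteins to a binder of the VHL ubiquitin ligase, so that BET proteins are degraded. BET proteins promote transcription by RNA polymerase II at active genes.

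Mitochondria translate their own few messages and import a separate set of synthetases, most of them from separate nuclear genes whose names end in 2. GARS and KARS serve both compartments, and TARSL2 encodes a second cytosolic threonyl enzyme although its name ends in 2. In the cytosol EPRS charges both glutamate and proline, and FARSA and FARSB are the subunits of a single phenylalanyl enzyme. The enzymes made by DARS, EPRS, IARS, KARS, LARS, MARS, QARS and RARS sit together in the multisynthetase complex on the scaffold proteins AIMP1, AIMP2 and EEF1E1. Several cytosolic synthetase genes are known targets of ATF4, the transcription factor of the amino acid response, which binds elements with the core TGATGNAA.

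That core was looked for, on either strand, in the 300 bases from 250 before to 50 after each RefSeq start site (GRCh38.p14), a table that held 39 such windows for 30 of the 37 genes; AARS2, DARS, LARS, TARSL2, VARS, VARS2 and YARS had none. A match was present in 7 of 16 cytosolic and 1 of 14 mitochondrial genes, against 4.46% of all 27305 genes and 3.62% of all 35116 windows. The 30 bases around each match are shown because 6 of the 8 lie within 33 bases of a start site. They read 5′ to 3′ on the strand of the gene, with the matched core or its reverse complement in capitals.
AARS, first capital 187 bases before the start, chr16:70289675-70289704: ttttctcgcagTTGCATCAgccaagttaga
CARS, 2 bases before the start, chr11:3057407-3057436: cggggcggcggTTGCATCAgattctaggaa
GARS, 33 bases before the start, chr7:30594834-30594863: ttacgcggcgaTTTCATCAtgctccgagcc
IARS, 13 bases before the start, chr9:92293692-92293721: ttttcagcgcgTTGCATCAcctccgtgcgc
MARS, 4 bases before the start, chr12:57488053-57488082: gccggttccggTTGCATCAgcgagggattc
NARS, at base 15 of the transcript, chr18:57621804-57621833: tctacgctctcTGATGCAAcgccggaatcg
TARS, at base 3 of the transcript, chr5:33440956-33440985: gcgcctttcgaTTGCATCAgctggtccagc
YARS2, 197 bases before the start, chr12:32756076-32756105: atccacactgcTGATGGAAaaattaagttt
A match is a description of these letters, not a measured binding site.

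The total count was 16041022 to 17024157 in the treated and 18441248 to 18938465 in the untreated libraries. Divided by its degrees of freedom, chi-square over genes was 3.6 between the treated libraries and 24 between the untreated ones, which stood further apart. In 36 of 37 synthetase genes untreated replicate 2 lay on the treated side of untreated replicate 1, RARS2 being the exception. This was also true of 59 of the 65 partner genes described below and of all 10 T-cell markers. The share over all genes was not computed. Among the 36 synthetase genes the step from untreated replicate 1 to 2 covered 10.6% (VARS2) to 69.5% (TARS) of the distance to the treated mean. It was 21.7% for YARS2, 22.3% for LARS2, 23.9% for KARS and 26.2% for QARS. The cause of this step was not tested. Values without untreated replicate 2 are given for some genes. All 10 T-cell markers listed for Jurkat were detected in every library, and 8 of them fell, against 37.2% of all genes tested. CD7 rose, with a log2 fold change of 0.55, and CD3E, at 0.43, did not pass the test described below. Of 18 markers of myeloid, B, epithelial and fibroblast cells 14 had a row here. Their summed level was 249.2 and 263.8 CPM (counts scaled to a common depth with TMM factors) with GNE987 and 44.9 and 84.2 CPM without. The myeloid markers summed to 142.1 and 146.8 CPM with GNE987 and to 0.763 and 29.9 CPM in untreated replicates 1 and 2. For the B-cell markers the sums were 97.6 and 107.2 CPM with GNE987 and 41.5 and 51.5 CPM without. Fibroblast markers summed to 9.19 and 9.06 against 2.24 and 2.52 CPM, and epithelial ones to at most 0.725 CPM in any library. KRT18 was at 0 in both treated libraries and DCN at 0 in untreated replicate 1. The part of these markers in the results was not tested.

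Synthetase transcripts were mostly lower in cells treated with GNE987. With an adjusted p below 0.05 (edgeR quasi-likelihood test, Benjamini-Hochberg over all genes tested), 28 of 37 fell, 4 rose and 5 did not pass. Of all 15910 genes tested 37.2% were lower, 34.4% were higher and 71.6% changed in either direction. Among the synthetases 21 fell at least 2-fold, against 27.6% of all genes, and the median log2 fold change was -1.14, against -0.03 over all genes. Together the 37 genes made up 0.506% and 0.428% of all counts without GNE987 and 0.238% and 0.231% with it. The values of the treated and untreated libraries did not overlap for any of the 37, which was also true of 91.1% of all genes.

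**Figure D1:**
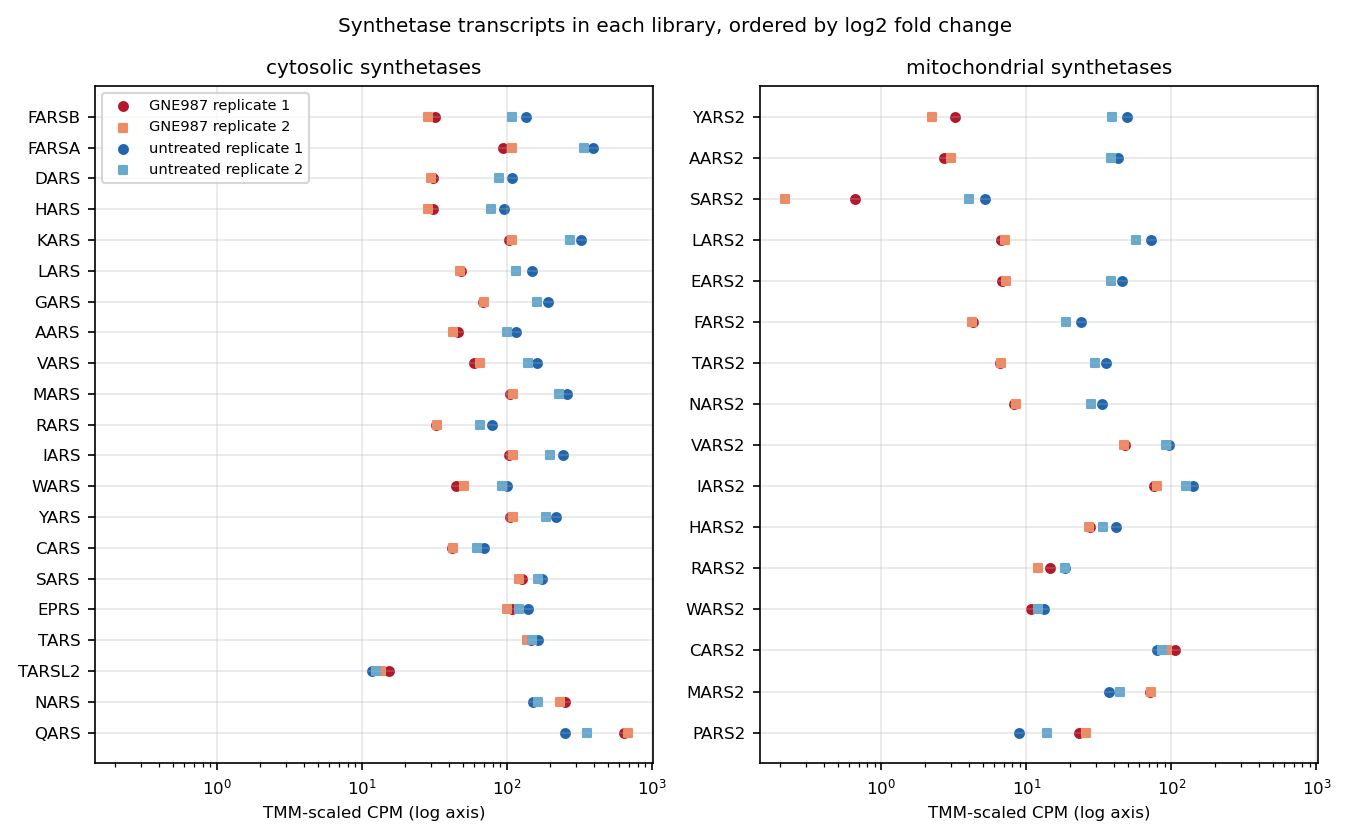
TMM-scaled CPM of each synthetase transcript (log axis) in the 4 libraries, one point per library, in order of log2 fold change, cytosolic genes on the left and mitochondrial on the right. The treated points lie to the left of the untreated ones for most genes and to the right for QARS, NARS, MARS2 and PARS2, which passed the test, and for CARS2 and TARSL2, which did not.

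The steepest falls were in transcripts of mitochondrial enzymes. Of the 16 mitochondrial genes 12 fell, 2 rose and 2 did not pass, with a median log2 fold change of -1.43. A fall of at least 4-fold was seen in 7 of the 16, and in 1 of the 21 cytosolic genes, against 13.8% of all genes tested. With a stricter filter (at least 10 CPM in 2 libraries), which removed SARS2, the mitochondrial median was -0.82 and the cytosolic one -0.97, so the order of the medians turned. YARS2, the mitochondrial tyrosyl enzyme (chromosome 12, 32727490 to 32755902, GRCh38), went from 49.2 and 39.1 CPM without GNE987 to 3.22 and 2.25 CPM with it. Its log2 fold change of -4.01 ± 0.24 (SE, adjusted p = 0.000307), 16.1-fold lower, was the lowest of the 37. AARS2, the alanyl enzyme (chromosome 6, 44299654 to 44313326), was at 2.69 and 3.04 CPM with GNE987 and at 43.1 and 38.5 CPM without, a change of -3.83 ± 0.16 (adjusted p = 0.000292). For both genes every treated library was more than 10-fold below every untreated one.

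LARS2, which charges leucine (chromosome 3, 45388506 to 45549421), went from 71.8 and 57.3 CPM to 6.7 and 7.17 CPM, a log2 fold change of -3.22 ± 0.17 (adjusted p = 0.000295). EARS2, the glutamyl enzyme, went from 45.4 and 38.3 CPM to 6.76 and 7.25 CPM (-2.58 ± 0.16, adjusted p = 0.000309). The treated libraries of these genes differed by less than 1 CPM, while the untreated ones were further apart. FARS2, a single-chain phenylalanyl enzyme, stood at 4.27 and 4.2 CPM with GNE987 and at 23.9 and 18.9 CPM without (-2.34 ± 0.2, adjusted p = 0.00057). TARS2, the threonyl enzyme, and NARS2, the asparaginyl enzyme, were at -2.30 ± 0.16 and -1.87 ± 0.16. SARS2, the seryl enzyme, was the least abundant member, with 115 and 82 counts without GNE987 and 10 and 3 counts with it. Its summed counts per scaled library were 10.3-fold lower, with a 95% interval of 5.91 to 19.8 that covers counting error only. The fitted log2 fold change of SARS2 was -3.36 ± 0.52, and it was -4.36 without GNE987 replicate 1 and -2.80 without GNE987 replicate 2. SARS2 shares exonic sequence with MRPS12, which runs the other way on chromosome 19, and the kit named in the labels does not mark strand, so reads of the overlap cannot be told apart.

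Smaller falls were measured for VARS2 at -0.99 ± 0.11 and IARS2 at -0.79 ± 0.12, the valyl and isoleucyl enzymes. HARS2 for histidine and RARS2 for arginine were at -0.47 ± 0.14 and -0.46 ± 0.16 (adjusted p = 0.0306 and 0.0446). Neither passed with DESeq2, with RLE (median ratio) or upper-quartile scaling in place of TMM, with the stricter filter, with the replicate number as a block (adjusted p = 0.053 and 0.0744), or without either treated library. WARS2, the tryptophanyl enzyme, had 10.8 and 12.0 CPM with GNE987 and 13.2 and 12.1 CPM without (-0.16 ± 0.17, adjusted p = 0.416), and its log2 fold change was 0.04 with upper-quartile scaling. CARS2, the cysteinyl enzyme, had 105.7 and 93.7 CPM with GNE987 and 79.4 and 85.5 CPM without (0.27 ± 0.12, adjusted p = 0.0919). CARS2 passed with RLE scaling, upper-quartile scaling, the stricter filter, DESeq2 and without either untreated library, and its log2 fold change was -0.10 when libraries were scaled by size alone.

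Transcripts of 2 mitochondrial enzymes rose. MARS2, which charges methionine and is encoded in a gene on chromosome 2 from 197705369 to 197708387, was at 71.1 and 72.1 CPM with GNE987 and at 36.9 and 44.3 CPM without. Its log2 fold change was 0.82 ± 0.13 (adjusted p = 0.00395). PARS2, the prolyl enzyme on chromosome 1 from 54756898 to 54764514, was at 23.2 and 25.9 CPM against 8.93 and 13.9 CPM (1.11 ± 0.24, adjusted p = 0.00971). Their log2 fold changes rested in part on which control was used, at 1.01 and 1.51 without untreated replicate 2 and at 0.69 and 0.82 without untreated replicate 1. PARS2 did not pass without GNE987 replicate 1 (adjusted p = 0.0564) or 2 (0.0759), and MARS2 passed in both cases (0.0484 and 0.0499). MARS2 made up 7.27% and 9.59% of the summed FPKM (the authors' length-scaled and depth-scaled level) of the mitochondrial set without GNE987 and 25.3% and 25.7% with it, while YARS2 went from 13.6% and 11.9% to 1.61% and 1.12%.

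Upstream sequences are shown for YARS2 and LARS2, which fell steeply, and for MARS2 and PARS2, which rose, cut where a GENCODE exon begins. AARS2 has no entry, and the upstream bases of SARS2 and EARS2 lie within annotated exons. They read 5′ to 3′ on the strand of the gene. Capitals mark matches, on either strand, to the motif TGATGNAA, the E-box CACGTG bound by MYC and its relatives, the NRF1 motif (GCGCA, any base, GCGC), the ETS core CCGGAAG and the CCAAT box.
YARS2, chr12:32755903-32756147, minus strand: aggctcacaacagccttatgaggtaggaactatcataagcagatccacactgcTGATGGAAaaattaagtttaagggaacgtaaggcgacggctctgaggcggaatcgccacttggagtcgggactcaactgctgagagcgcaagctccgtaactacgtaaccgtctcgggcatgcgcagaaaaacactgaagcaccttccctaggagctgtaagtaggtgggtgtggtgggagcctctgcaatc
LARS2, chr3:45388326-45388505, plus strand: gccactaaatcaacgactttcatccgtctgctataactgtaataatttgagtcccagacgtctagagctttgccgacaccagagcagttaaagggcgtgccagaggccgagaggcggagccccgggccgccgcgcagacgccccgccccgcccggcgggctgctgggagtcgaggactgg
MARS2, chr2:197705119-197705368, plus strand: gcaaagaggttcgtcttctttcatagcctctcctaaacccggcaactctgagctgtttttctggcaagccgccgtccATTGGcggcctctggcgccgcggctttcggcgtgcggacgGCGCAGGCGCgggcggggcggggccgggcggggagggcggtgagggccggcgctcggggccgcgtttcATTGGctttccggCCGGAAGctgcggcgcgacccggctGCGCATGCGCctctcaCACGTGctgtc
PARS2, chr1:54764524-54764773, minus strand: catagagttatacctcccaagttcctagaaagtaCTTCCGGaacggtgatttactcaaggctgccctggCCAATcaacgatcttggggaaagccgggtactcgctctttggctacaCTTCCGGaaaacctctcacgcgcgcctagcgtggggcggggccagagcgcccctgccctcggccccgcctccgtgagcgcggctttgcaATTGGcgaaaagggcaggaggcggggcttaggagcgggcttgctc
The MARS2 stretch held 1 E-box, 2 NRF1 motifs, 1 ETS core and 2 CCAAT boxes, and the PARS2 stretch 2 ETS cores and 2 CCAAT boxes. Neither the YARS2 nor the LARS2 stretch held a match to these 4 motifs, but other genes that fell steeply did in their windows: SARS2 held 1 ETS core and 4 CCAAT boxes, TARS2 held 1 ETS core and 2 CCAAT boxes, and EARS2 held 1 E-box, 1 ETS core and 1 CCAAT box. Over the 30 synthetase genes with windows, a CCAAT box was present in 16 (39.7% of all genes), an ETS core in 16 (12.2%), an NRF1 motif in 6 (6.98%) and an E-box in 4 (8.77%). The CCAAT box was found in 4 of 4 genes that rose, 3 of 4 that did not pass and 9 of 22 that fell. In the same order, the ETS core was found in 3 of 4, 2 of 4 and 11 of 22. The NRF1 motif was found in 2 of 4, 1 of 4 and 3 of 22, and the E-box in 1 of 4, 1 of 4 and 2 of 22. These splits were not tested. These motifs were chosen with the values known, and a match or its lack says nothing of what binds there.

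Among cytosolic synthetases the steepest fall was 4.01-fold, in FARSB. Of the 21 genes 16 fell, 2 rose and 3 did not pass, and their log2 fold changes ranged from -2.01 to 1.11 around a median of -1.14. Transcripts of both subunits of the phenylalanyl enzyme fell. FARSB went from 135.6 and 109.4 CPM to 32.2 and 28.8 CPM (-2.01 ± 0.16, adjusted p = 0.000458). FARSA went from 395.4 and 339.6 CPM to 94.2 and 108.3 CPM (-1.86 ± 0.15, adjusted p = 0.00052). The FPKM of FARSA was 4.05 and 5.19 times that of FARSB in the treated libraries and 4.03 and 4.3 times in the untreated ones, so the ranges of the ratio overlapped.

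QARS overtook FARSA in level. In FPKM the highest means over the 4 libraries were those of QARS, FARSA and KARS, at 101.6, 95.1 and 49.5, but the order differed between the groups. FARSA was first and KARS and QARS next in the untreated libraries, and QARS was first, followed by NARS and then FARSA, in the treated ones. FARSA made up 20.9% and 19.8% of the summed FPKM of the cytosolic set without GNE987 and 8.21% and 9.27% with it. QARS, which charges glutamine, made up 6.95% and 10.9% without and 28.9% and 30.2% with GNE987. The summed FPKM of the cytosolic set was 777.9 and 684.9 in the untreated and 464.8 and 474.7 in the treated libraries. Without QARS it was 723.9 and 610.3 against 330.6 and 331.2, and the mitochondrial set summed to 168.2 and 149.0 against 91.6 and 91.9.

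**Figure D2:**
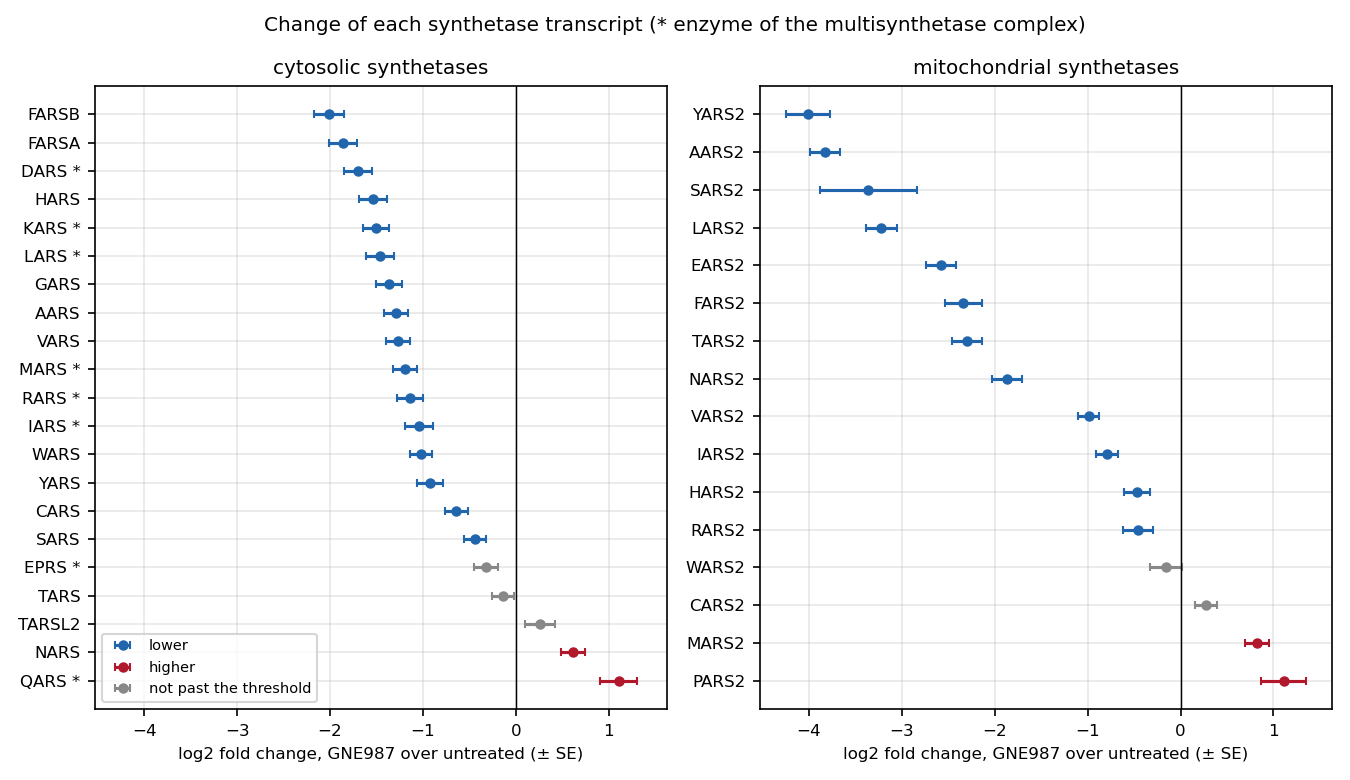
Log2 fold change of each synthetase transcript, GNE987 over untreated, with its standard error, for cytosolic genes (left, enzymes of the multisynthetase complex starred) and mitochondrial genes (right). The mitochondrial genes span -4.01 to 1.11 and the cytosolic ones -2.01 to 1.11.

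Within the multisynthetase complex 6 of 8 enzyme genes fell, QARS rose and EPRS did not pass. QARS, on chromosome 3 from 49095932 to 49105135, was at 640.8 and 682.9 CPM with GNE987 and at 254.2 and 360.9 CPM without, a log2 fold change of 1.11 ± 0.20 (adjusted p = 0.00542). Both treated libraries lay above both untreated ones, which were more than 100 CPM apart. Without untreated replicate 2 the change was 1.43, without untreated replicate 1 it was 0.87, and without GNE987 replicate 2 it did not pass (1.06, adjusted p = 0.0569). KARS, the lysyl enzyme, fell from 326.8 and 274.1 CPM to 104.4 and 108.3 CPM (-1.50 ± 0.14, adjusted p = 0.000794). DARS, for aspartate, was at -1.70 ± 0.15 and LARS, for leucine, at -1.46 ± 0.15. MARS for methionine, RARS for arginine and IARS for isoleucine were at -1.19, -1.14 and -1.04, with standard errors of 0.13 to 0.15. MARS shares exonic sequence with DDIT3, a stress-response gene on the other strand that was at 0.67 ± 0.15. EPRS had 109.0 and 100.5 CPM with GNE987 and 140.4 and 121.3 CPM without (-0.32 ± 0.13, adjusted p = 0.0727). EPRS passed with library size alone, without the filter on low counts and without either untreated library, at log2 fold changes from -0.70 to -0.21.

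Transcripts of the scaffold proteins of the complex did not move alike. EEF1E1, also known as AIMP3, was at 0.853 and 1.16 CPM with GNE987 and at 22.3 and 17.0 CPM without, a log2 fold change of -4.28 ± 0.28 (adjusted p = 0.000333). AIMP1 was at 92.2 and 93.8 CPM with GNE987 and at 56.3 and 63.0 CPM without (0.64 ± 0.12, adjusted p = 0.00549). AIMP2 was at 94.7 and 108.8 CPM against 58.4 and 70.9 CPM (0.66 ± 0.15, adjusted p = 0.0115). EEF1E1 was therefore lower and both AIMP genes higher in every treated library than in every untreated one. The rises of AIMP1 and AIMP2 did not pass with library size alone (adjusted p = 0.1 and 0.111), without GNE987 replicate 1 (0.0649 and 0.0626) or without GNE987 replicate 2 (0.0696 and 0.113).

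Outside the complex 10 of 13 cytosolic genes fell and 1 rose. NARS, the asparaginyl enzyme on chromosome 18 from 57600656 to 57622213, was the one that rose, with 253.0 and 235.2 CPM in the treated and 152.4 and 164.9 CPM in the untreated libraries (0.62 ± 0.13, adjusted p = 0.00774). NARS did not pass with library size alone (0.25, adjusted p = 0.139), without GNE987 replicate 1 (0.0984) or without GNE987 replicate 2 (0.0701). GARS for glycine, AARS for alanine, VARS for valine and WARS for tryptophan were at -1.36, -1.29, -1.27 and -1.02. YARS for tyrosine was at -0.92 ± 0.14 and CARS for cysteine at -0.64 ± 0.12. SARS, the seryl enzyme, was at 128.1 and 121.5 CPM with GNE987 and at 174.9 and 163.3 CPM without (-0.44 ± 0.12, adjusted p = 0.0206), and it did not pass without either treated library, with upper-quartile scaling or with the stricter filter. CARS did not pass without GNE987 replicate 1 (adjusted p = 0.078) or 2 (0.0676), IARS2 likewise (0.0604 and 0.0534), and YARS did not pass without GNE987 replicate 1 (0.0542).

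The genes for the threonyl enzymes of the cytosol did not pass. TARS had 147.9 and 138.3 CPM with GNE987 and 165.4 and 149.9 CPM without (-0.14 ± 0.12, adjusted p = 0.346). TARSL2 had 15.4 and 13.7 CPM with GNE987 and 11.8 and 12.5 CPM without (0.26 ± 0.16, adjusted p = 0.192). The direction of both depended on the scaling: TARS was at 0.06 with upper-quartile scaling and passed, as lower, with library size alone (-0.51, adjusted p = 0.0199), and TARSL2 was at -0.11 with library size alone and passed, as higher, with upper-quartile scaling (0.46, adjusted p = 0.0454).

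The 7 cytosolic genes with the TGATGNAA core shown above included 5 that fell, NARS, which rose, and TARS, which did not pass. Their median log2 fold change was -1.04, with a range from -1.36 to 0.62. The 9 cytosolic genes with windows but no such match had a median of -1.14 and a range from -2.01 to 1.11, with 7 lower and 1 higher. ATF4 itself had 2039 and 2102 CPM in the treated and 831.1 and 1137 CPM in the untreated libraries (1.07 ± 0.19, adjusted p = 0.00514). On leaving out each library in turn, the log2 fold change of ATF4 ranged from 0.86 to 1.37. ASNS, the asparagine synthetase and an ATF4 target, had 114 and 108 counts with GNE987 and 2 and 36 counts without. Its log2 fold change, 2.1 to 6.35 on leaving out each library in turn, was 3.05 ± 0.93 with all 4 (adjusted p = 0.0302). ASNS did not pass with robust estimation (0.0793) or without either treated library (0.14 and 0.145), and ATF4 did not pass without GNE987 replicate 2 (0.0505); both genes were singled out after their values were seen.

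With GNE987 the ratio of cytosolic to mitochondrial transcript for the same amino acid lay outside the untreated range in all 18 pairings. In CPM, 91.1% of all single genes did not overlap between the groups. That is another measure than a ratio, and no share over other pairs of genes was computed. EPRS, FARS2 and TARS2 each enter 2 of the 18 pairings. Of these pairings, which cover 16 amino acids, both genes fell in 10, and in 2, asparagine and methionine, one gene rose while the other fell. For asparagine the ratio of NARS to NARS2 in FPKM was 23.6 and 21.4 in the treated and 3.53 and 4.55 in the untreated libraries. For methionine the order of the genes turned: MARS was at 3.05 and 2.22 times the FPKM of MARS2 without GNE987 and at 0.633 and 0.657 times with it. YARS stood at 1.17 and 1.26 times YARS2 without GNE987 and at 8.54 and 12.9 times with it. The ratio was higher in both treated libraries than in both untreated ones for 10 pairings and lower for the other 8. These ratios are described per library and were not tested, and the lengths behind the FPKM are those the authors used.

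**Figure D3:**
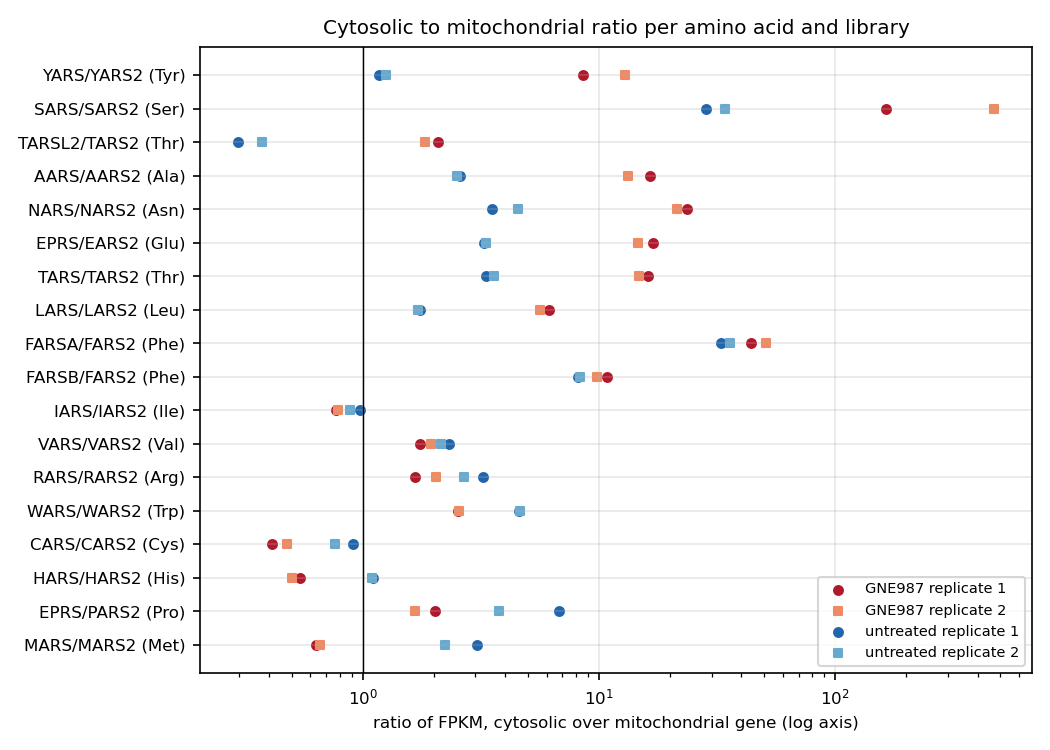
Ratio of the FPKM of the cytosolic to the mitochondrial synthetase gene (log axis) for each amino acid with both, one point per library. The points for YARS over YARS2 lie at 1.17 and 1.26 without and at 8.54 and 12.9 with GNE987, and those for MARS over MARS2 at 3.05 and 2.22 without and at 0.633 and 0.657 with it.

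HARS and HARS2, the histidyl genes, start head to head on chromosome 5. Their RefSeq start sites, 140691370 and 140691455, lie 85 bases apart. The bases next to each start are shown because 1 ETS core lies beside each, in capitals, on the plus strand (GRCh38.p14).
Next to HARS, chr5:140691371-140691400: gaCTTCCGGctatcgagtcgctgggtcgca
Next to HARS2, chr5:140691425-140691454: caaaaattatttccggctcctcCCGGAAGt
HARS was at 31.3 and 28.6 CPM with GNE987 and at 96.5 and 78.2 CPM without (-1.54 ± 0.15, adjusted p = 0.000825). HARS2 was at 27.4 and 27.2 CPM with GNE987 and at 41.5 and 34.0 CPM without. The ratio of HARS to HARS2 in FPKM was 0.544 and 0.5 in the treated and 1.11 and 1.09 in the untreated libraries. The annotated exons of these neighbours overlap, as do exons of 20 of the 37 synthetase genes with some other gene, and reads of such stretches cannot be told apart without strand.

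Mitochondria make glutaminyl-tRNA without a synthetase of their own: EARS2 loads glutamate, and an amidase built from QRSL1, GATB and GATC converts it. All 3 amidase genes fell while the cytosolic QARS rose. QRSL1 was at 2.95 and 2.54 CPM with GNE987 and at 45.0 and 33.0 CPM without (-3.82 ± 0.23, adjusted p = 0.000309). GATB was at -3.50 ± 0.24 and GATC at -1.19 ± 0.14. MTFMT, which formylates the initiator methionyl-tRNA that MARS2 loads, also fell (-0.74 ± 0.16, adjusted p = 0.0102). Of 8 tested elongation factors 4 fell, all of them mitochondrial, and 2 cytosolic ones rose. The mitochondrial factors TSFM, GFM1 and TUFM were at -1.66, -1.39 and -1.32, with standard errors of 0.13 to 0.16. The share of counts from the 13 messages encoded in the mitochondrial genome was 3.72% and 4.73% without GNE987 and 7.02% and 7.48% with it, and its part in these falls was not tested.

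Genes that work with the synthetases fell more often than they rose. Of 66 listed partners 65 had a row and 64 were tested, of which 34 fell and 15 rose. Their median log2 fold change was -0.44. The background shares are those given above, 37.2% lower and 34.4% higher. Of 23 tRNA maturation genes 15 fell and 2 rose, among them TSEN54 and TSEN15 of the tRNA splicing endonuclease at -2.26 ± 0.13 and -2.34 ± 0.15. RTCB, the tRNA ligase, went from 136.3 and 114.5 CPM to 29.4 and 30.9 CPM (-2.06 ± 0.14, adjusted p = 0.000348). Of 5 tested proofreading and release genes 3 fell: the D-aminoacyl-tRNA deacylases DTD2 at -2.90 ± 0.25 and DTD1 at -2.64 ± 0.36, and AARSD1, related to the editing domain of the alanyl enzyme, at -0.99 ± 0.34. AARSD1 had under 3 CPM in every library and did not pass with DESeq2 (adjusted p = 0.17), RLE or upper-quartile scaling (0.0559 and 0.0785), the replicate block (0.101) or without either treated library (0.115 and 0.194).

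The selenocysteine and sensing lists were split. Of 6 genes for selenocysteine, which is built on its tRNA from serine loaded by SARS, 2 rose and 1 fell. SECISBP2, which guides selenocysteine insertion, was at 27.3 and 26.0 FPKM with GNE987 and at 5.36 and 9.42 FPKM without (1.84 ± 0.29, adjusted p = 0.0036). SEPHS2, the selenophosphate synthetase, was at 1.40 ± 0.22, and its relative SEPHS1 at -0.67 ± 0.12. EIF2AK4, the kinase GCN2 that senses uncharged tRNA, and GCN1, its activator, were at -1.52 ± 0.14 and -1.63 ± 0.13. Of the 15 genes for sensing and the ATF4 response 7 rose and 6 fell. Those that rose were ATF4, ASNS, CHAC1, DDIT3, SESN2, SLC7A11 and SLC3A2, at 0.67 (DDIT3) to 3.05 (ASNS). Besides the sensors EIF2AK4 and GCN1, those that fell were PHGDH, SHMT2, VLDLR and TRIB3. TRIB3, a pseudokinase induced by ATF4, was at -1.27 ± 0.12. PSAT1 and SLC7A5 did not pass. SEPHS1 did not pass without GNE987 replicate 1 (adjusted p = 0.0745) or 2 (0.0838).

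**Figure D4:**
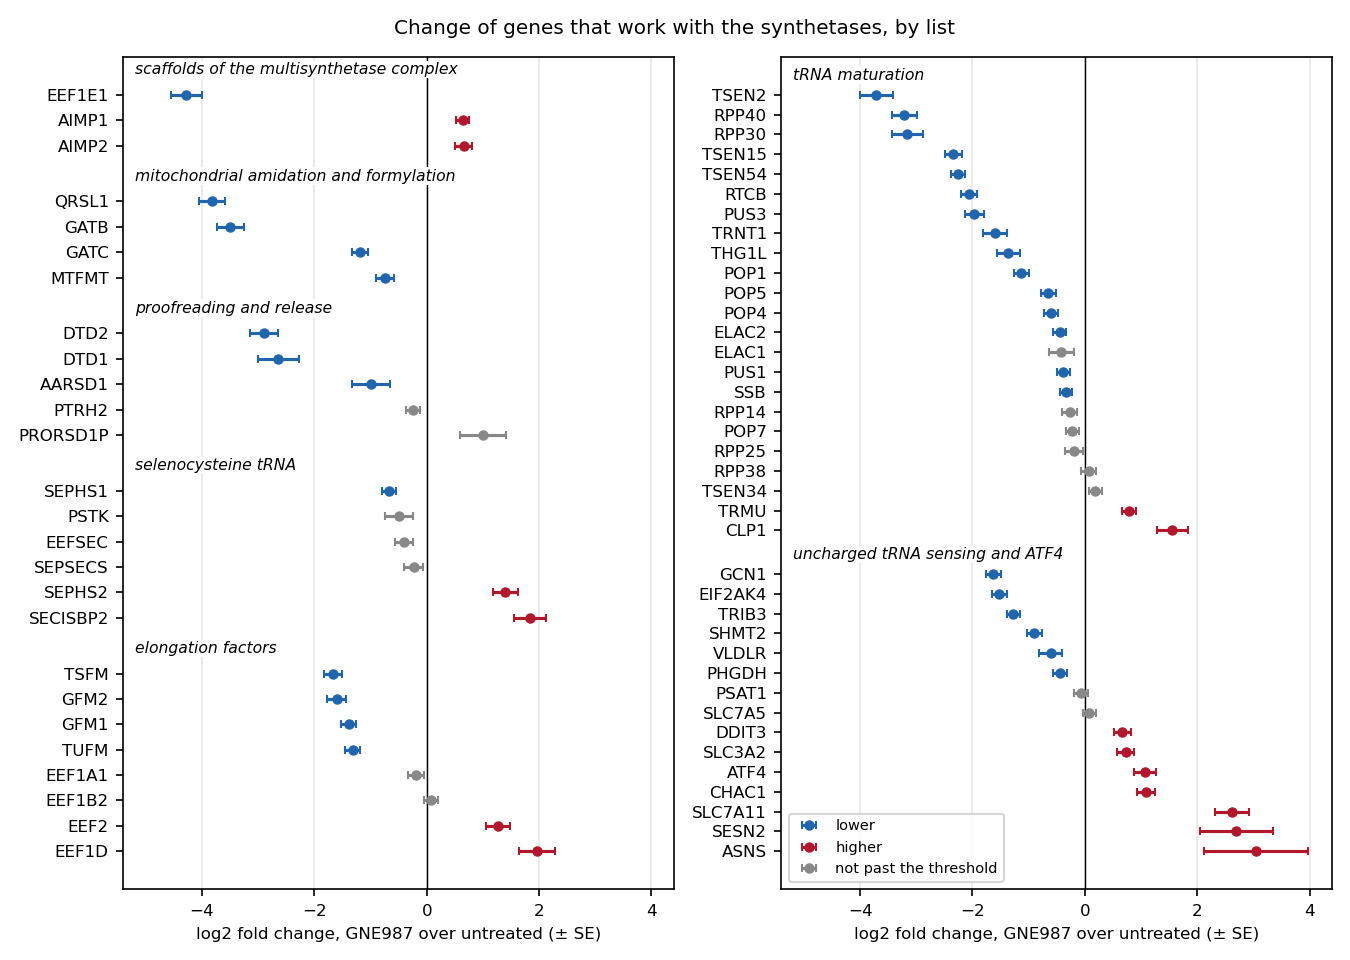
Log2 fold change with standard error of the 64 tested genes that work with the synthetases, grouped by list. EEF1E1 is at -4.28 beside AIMP1 and AIMP2 at 0.64 and 0.66, and all 4 genes of mitochondrial amidation and formylation lie below 0.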

How the data were processed

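Polyadenylated RNA was extracted with TRIzol and made into libraries with the Illumina TruSeq RNA Sample Prep Kit, per the labels' protocols. The catalogue version named there does not mark strand. HISAT2 2.2.0 and hg38 are named in the submitters' processing notes. Counting tool, annotation and strand setting: not given in the sources used here. One table held the authors' raw counts, a normalized signal (the authors' count divided by 1 number per library, not used here), the authors' FPKM, and the authors' own log2 fold change and p-value. Counts were filtered with filterByExpr of edgeR 4.0.16 (minimum count 10, minimum total 15), which left 15910 of 26733 genes, scaled with TMM and tested with glmQLFit and glmQLFTest in R 4.3.3, with 2 residual degrees of freedom. CPM values are TMM-scaled, and shares of counts use the total count. The standard error is the log2 fold change divided by the square root of F. At these depths 3 counts equal 0.158 to 0.187 CPM. Gene positions are from GENCODE 29 and promoter sequences from RefSeq. Alternatives were RLE, upper-quartile and no scaling factors, no filter, a filter of 10 CPM in 2 libraries, DESeq2 1.42.0, a block for the replicate number, robust estimation, and leaving out each library in turn. The fit was also run on simulated data in which few genes changed and both groups had the same spread. Neither held here, so that run cannot show how the fit performs on these data. The members, lists and motifs were chosen with earlier results of these data known. The genes to describe in more detail were picked by rule. They were the 6 lowest and 6 highest changed members, the 3 most abundant and those not past the threshold. Pairs moving in opposite directions and the 3 partners of smallest p in each list were also picked. Not every value was printed for each of these genes. FARSB, HARS, HARS2, ATF4, ASNS, DDIT3 and MTFMT fell outside that rule and were chosen after their values were seen.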

Additional observations from a re-analysis of the deposited data

How the results depend on the processing

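The count of changed synthetases was 29 to 33 under the other scalings, filters and tests and 30 with the replicate block, against 32, and 24 to 34 when 1 library was left out. The replicate numbers share only a number, with a correlation of -0.00595 between the groups' replicate differences, and with the block HARS2 and RARS2 were the synthetase calls lost. Over all genes the median log2 fold change, -0.03, moved to -0.41 with library size alone and to 0.16 with upper-quartile scaling. With library size alone 4103 of 11267 changed genes were higher, against 5467 of 11387, as was 1 cytosolic synthetase. Leaving out 1 library gave 1 to 5 synthetases higher (0 to 2 cytosolic and 1 to 3 mitochondrial), 31 to 52 partners changed (7 to 17 higher) and 6070 to 12921 genes changed (2062 to 6534 higher). The lowest counts came from leaving out a treated library, when only the untreated pair sets the spread and the lone treated library is assumed to vary likewise. Directions turned for CARS2 (-0.10) and TARSL2 (-0.11) with library size alone, and for TARS (0.06 and 0.03) and WARS2 (0.04 and 0.01) with upper-quartile scaling and the stricter filter; none of these turned values was past the threshold. SARS2 was removed by the stricter filter. The cause of these shifts was not tested. No spike-in was analysed here to set an absolute scale.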

Other observations

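At a threshold of 0.05 on the adjusted p, 26 synthetase genes were lower and 4 higher in the authors' deposited table, the same call as here for 35 of 37. The exceptions, HARS2 and RARS2, stood at 0.0709 and 0.131 in the authors' deposited table.

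TARS2 was at 1.59 and 1.62 FPKM in the treated and 8.68 and 7.12 FPKM in the untreated libraries, while TARSL2 was at 3.3 and 2.96 against 2.57 and 2.66 FPKM. TARSL2, the least abundant cytosolic member in mean FPKM, was thus above TARS2 in both treated libraries and below it in both untreated ones.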
